A study of Mus musculus with 2 samples.

Results

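Cycling T cells were described in immune cells sorted from mouse gliomas, which were profiled by single-cell RNA sequencing on the BD Rhapsody system. A cell was taken as a cycling T cell when it held at least 2 unique molecular identifiers (UMIs) over Cd3d, Cd3e and Cd3g and at least 3 UMIs over the proliferation genes Mki67, Top2a, Birc5 and Ccna2, after cells with under 500 UMIs, under 200 genes or over 20% mitochondrial UMIs were set aside. The rule found 1202 cycling T cells among 15723 kept cells: 446 of 7967 in the library labelled EM and 756 of 7756 in the library labelled PBS. The EM library came from gliomas treated with EM, with 72 h in its title. The PBS library came from gliomas treated with phosphate-buffered saline, with no time given. The labels do not spell out EM and name no mouse strain, glioma line, dose or number of animals. Both libraries hold living CD45.2+CD45.1- cells, a gate that sets aside CD45.1+ cells. With 1 library per group no test between EM and PBS was possible. All intervals are exact 95% intervals that cover counting error only. Treatment, library, depth, sex, time and animal cannot be told apart in any difference below.

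T cells divide after their antigen receptor is engaged with costimulation and cytokine signals. The genes of DNA replication are switched on by E2F factors as a cell leaves G1, and those of mitosis later, by B-MYB and FOXM1 complexes that bind the cell cycle homology region (CHR) of their promoters. Mki67 encodes the Ki-67 protein that coats mitotic chromosomes, Top2a the topoisomerase that untangles sister chromatids, Birc5 the chromosomal passenger protein survivin, and Ccna2 cyclin A, which drives S phase and entry into mitosis. In tumours, dividing Cd8 T cells include cytotoxic cells that kill through perforin and granzymes, and dividing Cd4 T cells include helper cells and Foxp3-expressing regulatory T cells. Type I interferon acts on T cells through the ISGF3 complex, which binds the interferon-stimulated response element (ISRE).

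These elements stand upstream of some genes of the cell cycle and interferon lists, and 5 promoters that hold one are shown because those lists are described below. The sequences are the 250 bases before the RefSeq gene start (GRCm38.p6, the mm10 assembly), read 5′ to 3′ on the gene's strand, with the matches of 1 motif in capitals: the CHR (TTTGAA or TTTAAA) for Mki67, a gene of the rule, and for Cdk1, the kinase that triggers mitosis; E2F sites (TTTCCCGC, TTTGGCGC, TTTCGCGC or TTTGCCGC) for Mcm5, a subunit of the replicative helicase; and the ISRE core (2 copies of GAAA with any 2 bases between them) for Isg15, a ubiquitin-like antiviral protein, and Rsad2, the antiviral enzyme viperin.
Mki67: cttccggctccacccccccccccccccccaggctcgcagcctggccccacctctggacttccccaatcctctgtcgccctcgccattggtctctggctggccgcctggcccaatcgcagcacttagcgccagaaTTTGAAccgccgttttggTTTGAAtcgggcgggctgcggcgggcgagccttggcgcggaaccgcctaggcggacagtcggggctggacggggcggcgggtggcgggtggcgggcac
Cdk1: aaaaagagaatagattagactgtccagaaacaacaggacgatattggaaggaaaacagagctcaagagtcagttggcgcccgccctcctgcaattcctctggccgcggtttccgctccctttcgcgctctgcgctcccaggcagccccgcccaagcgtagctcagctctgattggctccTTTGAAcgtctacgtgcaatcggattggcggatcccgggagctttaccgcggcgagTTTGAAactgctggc
Mcm5: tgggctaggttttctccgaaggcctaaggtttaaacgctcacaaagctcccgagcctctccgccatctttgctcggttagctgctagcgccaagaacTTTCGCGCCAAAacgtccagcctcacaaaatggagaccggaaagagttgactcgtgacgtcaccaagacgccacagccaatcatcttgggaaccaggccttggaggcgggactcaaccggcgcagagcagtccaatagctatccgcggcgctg
Isg15: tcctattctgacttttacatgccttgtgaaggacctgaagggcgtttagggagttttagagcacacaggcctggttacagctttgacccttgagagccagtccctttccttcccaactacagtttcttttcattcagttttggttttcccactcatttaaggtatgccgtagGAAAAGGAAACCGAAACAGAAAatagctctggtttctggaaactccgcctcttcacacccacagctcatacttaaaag
Rsad2: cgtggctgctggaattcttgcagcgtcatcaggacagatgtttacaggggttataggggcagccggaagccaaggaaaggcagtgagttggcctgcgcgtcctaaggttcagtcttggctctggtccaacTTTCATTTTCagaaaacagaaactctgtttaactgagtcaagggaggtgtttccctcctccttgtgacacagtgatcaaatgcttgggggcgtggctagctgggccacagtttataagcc
They lie at chr7:135716380-135716629 on the minus strand, chr10:69352913-69353162 on the minus strand, chr8:75109259-75109508 on the plus strand, chr4:156200819-156201068 on the minus strand and chr12:26456453-26456702 on the minus strand. Both strands were searched, and in Mcm5 the 2 E2F matches overlap, as do the 3 ISRE matches in Isg15. Over windows of 300 bases, from 250 before to 50 after the start, a CHR was found in 41 of 57 promoters of the G2/M list (71.9%), in 10 of 39 of the S phase list (25.6%) and in 27.8% of all 27025 promoters. An E2F match stood in 12 of 39 S phase promoters (30.8%), against 5.26% of the G2/M promoters and 2.32% of all. The ISRE core stood in 16 of 27 promoters of the type I interferon list (59.3%) and in 3.49% of all. A match describes the letters of the window only.

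The PBS library held more UMIs per cell. Members held a median of 4061.5 UMIs and 1854 genes in EM and 8454.5 UMIs and 2989 genes in PBS, and summed to 1989890 UMIs in EM and 7187724 UMIs in PBS. The label was checked on 5 T cell markers that the rule did not use, Cd2, Trac, Trbc2, Lck and Cd247. They summed to 3893 CPM (UMIs per 1000000 UMIs of the set) in EM and 3504 CPM in PBS in members, against 360 CPM in EM and 55.9 CPM in PBS in cells that met the cycling threshold with no Cd3 UMI. A UMI of these markers was found in 99.6% of members in each library, and in 32.3% of the cells with no Cd3 UMI in EM and 26.3% in PBS, at median depths of 1782.5 UMIs in EM and 11544 in PBS. The summed level of 11 myeloid markers, all detected, was 296 CPM in EM and 802 CPM in PBS. The 5 neutrophil markers summed to 3.02 CPM in EM, where S100a8 and S100a9 were at 0, and to 44.9 CPM in PBS. At least 2 myeloid or B cell marker UMIs were found in 6.28% of members in EM and 29.4% in PBS. Doublets were not called, and no cell was left out as one; the part of these markers in the results was not tested except where values without such cells are given. An Xist UMI, from the inactive X chromosome, was found in 74.2% of members in EM and 0.529% in PBS. A UMI of the Y-linked genes Ddx3y or Eif2s3y was found in 1.12% in EM and 75.5% in PBS. Sex and treatment therefore cannot be told apart. Cxcr3, Cd40lg and Foxp3, described below, lie on the X chromosome, and the part of sex in their ratios was not tested. The libraries share 66 barcodes, and 5 members in EM and 6 in PBS have a barcode that is also in the other library.

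The members ranged from cells at the edge of the rule to cells far inside it. Each held 3 to 87 UMIs of the 4 rule genes in EM (median 8) and 3 to 138 in PBS (median 19). Per 10000 UMIs of the cell the medians were 21.3 in EM and 21.7 in PBS, a far smaller gap than in raw UMIs. Just inside the rule, 82 T cells in EM and 116 in PBS held exactly 3 UMIs, and just outside it 183 in EM and 265 in PBS held exactly 2. A cell with 3 UMIs had a median of 9.48 rule gene UMIs per 10000 in EM and 5.49 in PBS, so the edge lay at a lower relative level in the deeper library. Most members of the PBS library, 446 of 756, held 12 or more, against 164 of 446 in EM. A Top2a UMI was found in 89.0% of members in EM and 88.1% in PBS, and a Mki67 UMI in 81.4% in EM and 88.9% in PBS.

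**Figure D1:**
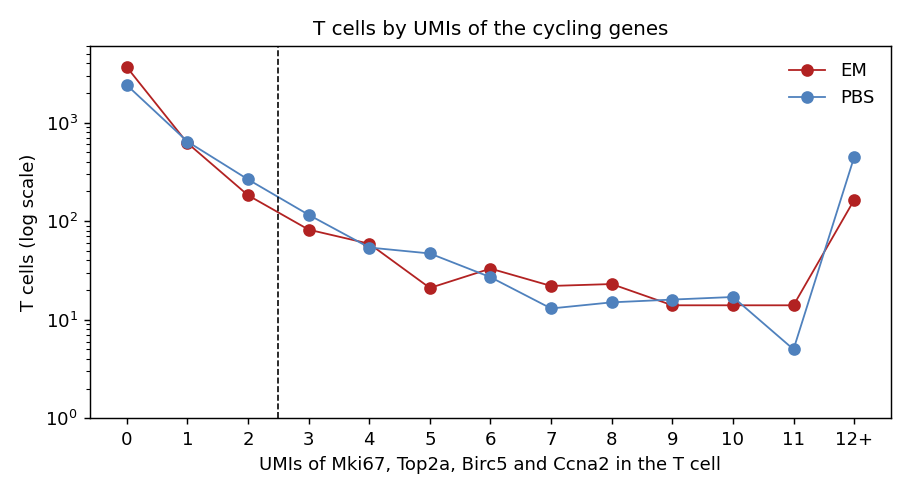
Number of T cells (log scale) by their UMIs of Mki67, Top2a, Birc5 and Ccna2 in the EM (red) and PBS (blue) libraries; the dashed line marks the rule, and the last point pools cells with 12 or more. T cells with exactly 3 UMIs numbered 82 in EM and 116 in PBS, and the pooled last point holds 164 in EM and 446 in PBS.

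As sequenced, cycling T cells were mostly Cd8 cells in both libraries, with a smaller Cd8 share and larger Cd4 and Foxp3 shares in EM. Cd8 cells (at least 2 UMIs of Cd8a and Cd8b1, which encode the coreceptor for MHC class I, and none of Cd4) were 264 members or 59.2% in EM and 611 or 80.8% in PBS, a ratio of 0.732 (0.632 to 0.848). Cd4 cells (at least 1 UMI of Cd4, the coreceptor for MHC class II, and none of Cd8a or Cd8b1) were 116 or 26.0% in EM and 79 or 10.4% in PBS, a ratio of 2.49 (1.85 to 3.36). Cells with a UMI of Foxp3, the transcription factor that defines regulatory T cells, were 65 or 14.6% in EM and 38 or 5.03% in PBS, a ratio of 2.90 (1.91 to 4.45). Cd4 members with no Foxp3 UMI were 15.7% in EM and 7.28% in PBS, a ratio of 2.16 (1.49 to 3.13). The Cd8 share among Cd8 and Cd4 members was 69.5% in EM and 88.6% in PBS.

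The remaining members fell into small groups. Cells with UMIs of both coreceptors were 4.93% in EM and 5.03% in PBS, a ratio of 0.981 (0.553 to 1.70). Cells with neither were 33 or 7.40% in EM and 16 or 2.12% in PBS, a ratio of 3.50 (1.87 to 6.80), and Trdc, the constant region of the delta T cell receptor chain, had a UMI in 8 of those 33 in EM and in 0 of 16 in PBS, which allows a share of up to 18.8%. Of the Foxp3 members, 46 of 65 in EM and 24 of 38 in PBS met the Cd4 rule, and 4 in EM and 2 in PBS the Cd8 rule. As background for a single Foxp3 UMI, 0.484% of 826 cells with at least 10 myeloid marker UMIs and no Cd3 UMI held one in EM and 0 of 1724 in PBS, at median depths of 989.5 UMIs in EM and 8220.5 in PBS. In Cd8 T cells outside the cycling rule, a Foxp3 UMI was found in 1.49% in EM and 0.282% in PBS, a ratio of 5.28 (2.29 to 14.2). The Foxp3 shares of members lay above both sets of levels, which were not taken at the depth of the members.

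The same lean was present in T cells that did not meet the cycling rule. Cd8 cells were 48.2% of them in EM and 75.0% in PBS, Cd4 cells 28.5% in EM and 13.9% in PBS, and Foxp3 cells 14.3% in EM and 3.63% in PBS. The EM over PBS ratios were 0.643 (0.606 to 0.681), 2.05 (1.84 to 2.28) and 3.95 (3.25 to 4.84). The interval of each overlaps that of the cycling T cells, and the difference between cycling and other T cells was not tested. With the PBS cells thinned at random to the EM depth, the ratios among cycling T cells were 0.709 for Cd8, 3.20 for Cd4 and 3.66 for Foxp3. With each cell thinned to 1000 UMIs, Cd8 cells were 32.5% of 120 members in EM and 40.4% of 203 in PBS, a ratio whose interval holds 1 (0.535 to 1.19). Foxp3 cells were then 12 of 120 in EM and 2 of 203 in PBS.

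**Figure D2:**
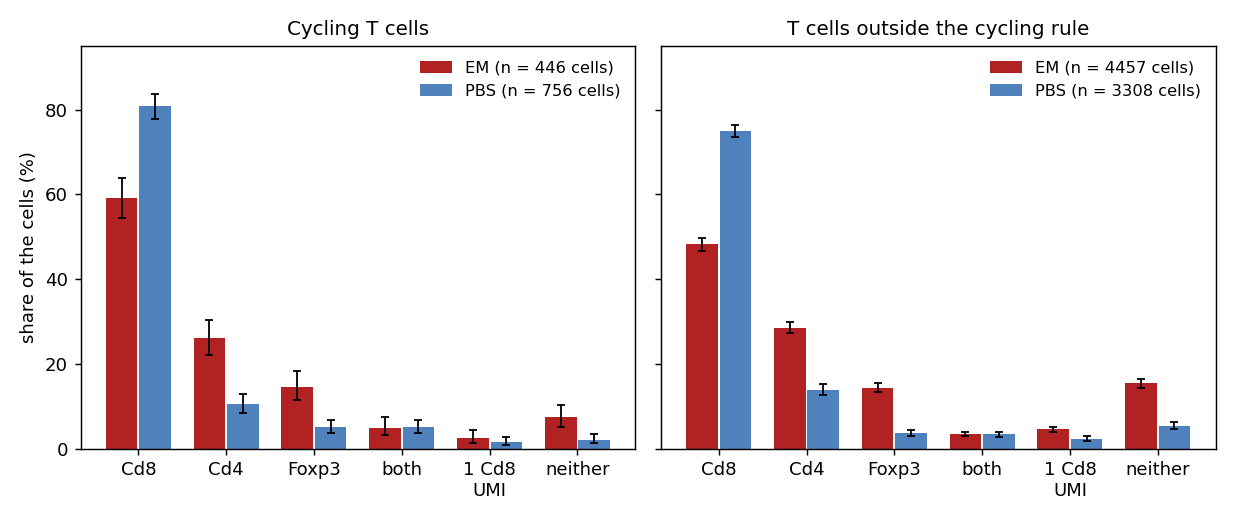
Share of cycling T cells (left) and of T cells outside the cycling rule (right), in percent, that were Cd8, Cd4, Foxp3, both, 1 Cd8 UMI without Cd4, or neither, in EM (red) and PBS (blue), with exact 95% intervals for counting error. Foxp3 cells also count in the other classes; among cycling T cells the Cd8 bar stands at 59.2% in EM and 80.8% in PBS.

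A smaller share of T cells met the cycling rule in EM: 9.10% (8.31 to 9.94) of 4903 in EM and 18.6% (17.4 to 19.8) of 4064 in PBS, a ratio of 0.489 (0.434 to 0.550). The share was lower in EM in every subset, at 10.9% in EM and 19.8% in PBS of Cd8 T cells, 8.37% in EM and 14.7% in PBS of Cd4 T cells, and 9.23% in EM and 24.1% in PBS of Foxp3 T cells. By value alone, Foxp3 T cells had the highest cycling share of these subsets in PBS (38 of 158 cells), and Cd8 T cells in EM. The intervals overlap, at 17.6 to 31.5% for Foxp3 and 18.4 to 21.2% for Cd8 T cells in PBS. In EM they were 7.20 to 11.6% for Foxp3 and 9.73 to 12.3% for Cd8 T cells. Cells outside the T cell rule met the cycling rule in 4.80% of cases in EM and 8.34% in PBS, a ratio of 0.575 (0.469 to 0.702). As background, 1.28% of 392 PBS cells with at least 20 UMIs of the neutrophil genes S100a8 and S100a9 met it.

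These shares and their ratios differed between the thinned settings. The rules were applied again to the thinned counts, so fewer cells counted as T cells. With the PBS cells thinned to the EM depth the cycling share of T cells was 9.10% in EM and 15.4% of 3593 in PBS, a ratio of 0.591 (0.521 to 0.671). With each cell thinned to 2000 UMIs, 2101 T cells in EM and 170 in PBS were left out for fewer UMIs. The share was then 9.25% of 2594 T cells in EM and 11.5% of 3509 in PBS, a ratio of 0.806 (0.684 to 0.948). With each cell thinned to 1000 UMIs, 109 T cells in EM and 38 in PBS were left out for fewer UMIs. The share was then 3.44% of 3491 T cells in EM and 7.84% of 2590 in PBS, a ratio of 0.439 (0.347 to 0.552). A minimum of 1500 UMIs with no thinning gave a ratio of 0.599. The parts of depth and of the cells left out were not tested. At 2000 UMIs the direction turned for Cd4 T cells, at 8.37% in EM and 6.14% in PBS, with an interval of the ratio that holds 1 (0.830 to 2.30).

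**Figure D3:**
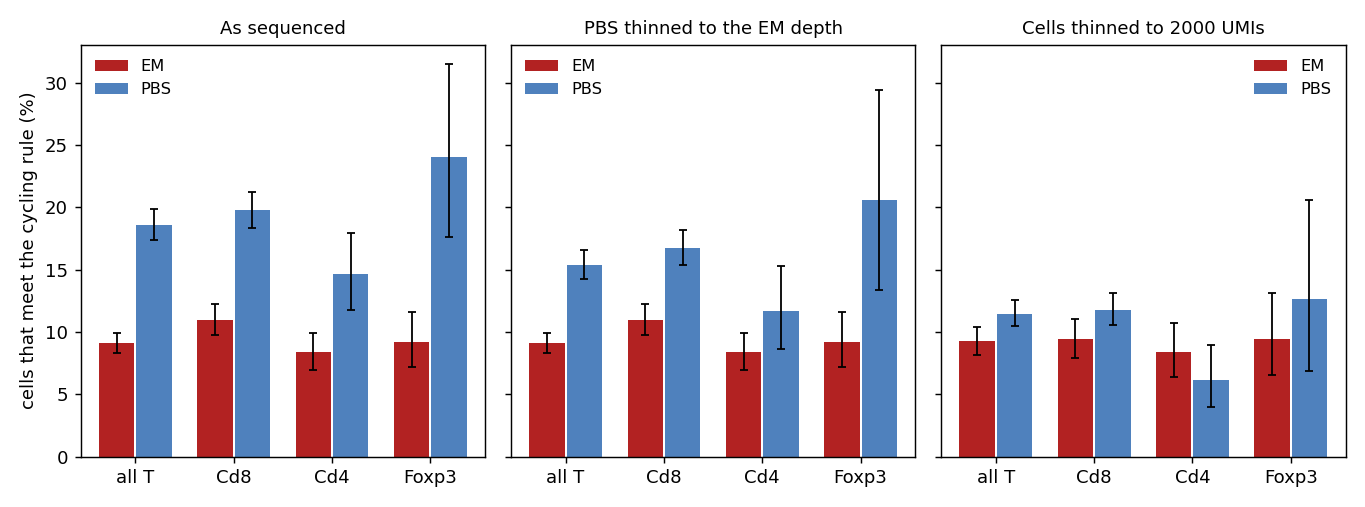
Percent of T cells, and of Cd8, Cd4 and Foxp3 T cells, that met the cycling rule in EM (red) and PBS (blue), as sequenced, with PBS thinned to the EM depth and with every cell thinned to 2000 UMIs; bars carry exact 95% intervals for counting error. All T cells stand at 9.10% in EM and 18.6% in PBS as sequenced, and at 9.25% in EM and 11.5% in PBS at 2000 UMIs.

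Levels of single genes were compared as CPM over the summed UMIs of the members of a library, and a gene counted as past the fold when its log2 ratio of EM over PBS was at least 1 or at most -1. Of 10838 genes with at least 20 UMIs over both libraries, 519 were past the fold and higher in EM (4.79%) and 994 lower (9.17%). Over all of them the median log2 ratio was -0.06. Fewer genes reached the minimum after thinning. With the PBS cells thinned to the EM depth, 596 of 9762 genes were past the fold and lower. With each member thinned to 1000 UMIs, 481 of 6960 were.

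Among cell cycle genes, those of DNA replication were mostly higher in EM and those of mitosis mostly lower. Top2a stood at 1246 CPM in EM and 1178 CPM in PBS, Mki67 at 875 CPM in EM and 943 CPM in PBS, Birc5 at 394 CPM in EM and 367 CPM in PBS, and Ccna2 at 292 CPM in EM and 421 CPM in PBS. All 4 genes chose the members and are given as a description. Of the 52 genes of the S phase list, all measured, 48 had a log2 ratio above 0, with a median of 0.34; 1, Dscc1, was past the fold, a smaller share than the 4.79% of all genes. Dscc1, of the clamp loader for sister chromatid cohesion, stood at 31.2 CPM in EM and 15.0 CPM in PBS (log2 ratio 1.05, 0.58 to 1.52). Rrm2, the ribonucleotide reductase subunit made in S phase, stood at 420 CPM in EM and 232 CPM in PBS, a log2 ratio of 0.86 (0.74 to 0.98). Brip1, a helicase of DNA repair, stood at 91.5 CPM in EM and 46.2 CPM in PBS (0.99, 0.72 to 1.25). The lowest were Chaf1b, of the chromatin assembly factor, at -0.46 and Blm, the Bloom helicase, at -0.33.

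Of 67 genes of the G2/M list, 51 had a log2 ratio below 0, with a median of -0.17, and 3 were past the fold lower, a smaller share than the 9.17% of all genes. Ccnb1, cyclin B1, stood at 54.8 CPM in EM and 122 CPM in PBS, a log2 ratio of -1.15 (-1.45 to -0.86). Cdc25c, the phosphatase that activates Cdk1, stood at 11.1 CPM in EM and 23.1 CPM in PBS (-1.06, -1.78 to -0.42). Nek2, a centrosome kinase, had -1.01. The highest were Ttk, a spindle checkpoint kinase, at 0.60 and the tubulin Tuba1b at 0.42. In T cells outside the cycling rule the G2/M median had the other sign, 0.30, over 61 measured genes. The rule cuts that set on raw UMIs. T cells with exactly 2 rule gene UMIs held a median of 6.55 of them per 10000 UMIs in EM and 4.01 in PBS. The part of the rule and of depth in that sign was not tested.

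UMIs of the S phase list were 34.2% (33.8 to 34.6) of those of both lists in EM and 25.7% (25.4 to 25.9) in PBS. The gap was widest in Cd8 members, at 35.0% in EM and 25.0% in PBS, and narrower in Cd4 members, at 32.0% in EM and 28.5% in PBS, and in Foxp3 members, at 31.9% in EM and 30.3% in PBS. T cells outside the cycling rule stood at 37.5% in EM and 38.2% in PBS. The G2/M median was -0.27 in Cd8 members and 0.12 in Cd4 members. With the PBS cells thinned to the EM depth, the S phase median was 0.27 and the G2/M median -0.43. The rule itself counts genes that peak between S and M phase, and its part in these shares was not tested.

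Among 25 measured cyclins, kinases and inhibitors, 2 were higher and 2 lower past the fold, near the 4.79% and 9.17% of all genes. Ccnd1, cyclin D1, stood at 22.1 CPM in EM and 3.62 CPM in PBS, a log2 ratio of 2.61 (1.88 to 3.37). Tob1, an antiproliferative protein of resting T cells, stood at 115 CPM in EM and 54.5 CPM in PBS (1.07). Btg2, another antiproliferative gene, stood at 147 CPM in EM and 325 CPM in PBS (-1.14), and Cdkn2a, which encodes a Cdk4 and Cdk6 inhibitor, at 5.03 CPM in EM and 13.4 CPM in PBS (-1.41).

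**Figure D4:**
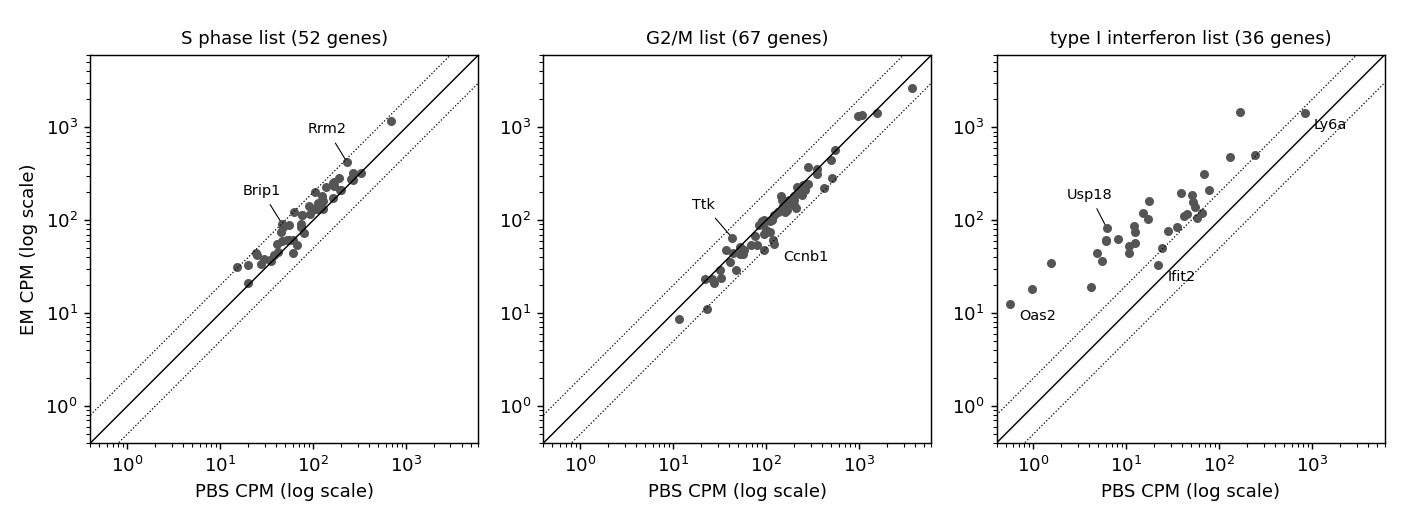
Level in cycling T cells of each measured gene of the S phase, G2/M and type I interferon lists, as CPM in PBS (x axis) and EM (y axis), both on log scales; the solid line marks equality and the dotted lines the 2-fold bounds. S phase genes lie mostly just above equality, G2/M genes mostly just below, and all 36 interferon genes above it.

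Type I interferon response genes were higher in EM throughout. All 36 measured genes of 37 listed had a log2 ratio above 0, 32 were past the fold against 4.79% of all genes, and the median was 2.20, as it was in T cells outside the cycling rule (2.20). Isg15 stood at 119 CPM in EM and 15.2 CPM in PBS, a log2 ratio of 2.97 (2.63 to 3.31). Usp18, which removes Isg15 from proteins and curbs interferon receptor signalling (chr6:121245906-121270917, plus strand, GENCODE M21), stood at 82.9 CPM in EM and 6.12 CPM in PBS (3.76, 3.27 to 4.27). Ifi44, an interferon-induced gene, stood at 34.7 CPM in EM and 1.53 CPM in PBS (4.50), and Oas2, an enzyme that senses viral double-stranded RNA, at 12.6 CPM in EM and 0.557 CPM in PBS (4.50); its PBS level rests on 4 UMIs. The smallest ratios were those of Ifit2, which binds RNA, at 0.59 and of the surface protein Ly6a at 0.77. Rsad2 had a log2 ratio of 2.94, and the transcription factors Stat2, Irf9 and Irf7 had 1.39, 1.33 and 2.21.

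The shift was spread over the cells and the subsets. UMIs of the list per 10000 UMIs of a member ran from 5.25 to 287 in EM (median 63.0) and from 0 to 143 in PBS (median 19.4). With members thinned to 1000 UMIs, at least 5 UMIs of the list were found in 66.7% of members in EM and 12.6% in PBS. The medians of the log2 ratios were 2.30 in Cd8 members, 1.75 in Cd4 members and 1.06 in Foxp3 members, with 21 genes measured in the last. Foxp3 members had a median per 10000 UMIs of 82.1 in EM and 35.6 in PBS. Cd4 members without Foxp3 had 75.0 in EM and 24.5 in PBS, and Cd8 members 54.6 in EM and 18.5 in PBS. A few genes weigh heavily in such sums. Over all members the list summed to 6899 CPM in EM and 2190 CPM in PBS. Of this, Ly6a made up 1426 CPM in EM and 837 CPM in PBS, and Ifi27l2a 1467 CPM in EM and 168 CPM in PBS. T cells outside the cycling rule had medians of 83.4 in EM and 24.0 in PBS.

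Cytotoxic genes differed in both directions. Of 19 genes, 1 was past the fold higher, near the 4.79% of all genes, and 4 lower, against 9.17%, and the median was 0.18. Ifng, the cytokine interferon gamma, stood at 243 CPM in EM and 106 CPM in PBS, a log2 ratio of 1.19 (1.02 to 1.36), and at 239 CPM in EM and 117 CPM in PBS in Cd8 members. In Cd4 members without Foxp3 it stood at 527 CPM in EM and 91.2 CPM in PBS (2.53, 2.04 to 3.04). Gzmb, granzyme B, stood at 2155 CPM in EM and 1513 CPM in PBS (0.51), in 63.5% of members in EM and 71.3% in PBS. Prf1, the pore-forming perforin (chr10:61297833-61304680, plus strand), stood at 73.9 CPM in EM and 291 CPM in PBS, a log2 ratio of -1.98 (-2.23 to -1.74), and at -1.54 in Cd8 members alone. Serpinb9, the granzyme B inhibitor that protects the killer cell, stood at 58.8 CPM in EM and 505 CPM in PBS (-3.10). Fasl, the death ligand, had -1.09. Serpinb9 has close copies, Serpinb9b among them, and reads that the copies share make their split uncertain. In Cd8 members alone, 5 of the 19 genes were past the fold higher, against 4.64% of the genes measured there, and 3 lower, against 10.9%, with a median of 0.52.

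Chemokine and effector genes split as well. Of 21 type 1 effector genes, 4 were higher past the fold (4.79% of all genes) and 1 lower (9.17% of all genes), with a median of -0.11. Ccl5, a chemokine of effector T cells, stood at 1414 CPM in EM and 2957 CPM in PBS (-1.06, -1.12 to -1.01), and at -0.75 in Cd8 members alone, where it no longer passed the fold. Cxcr3, the X-linked receptor for interferon-induced chemokines, stood at 89.5 CPM in EM and 27.0 CPM in PBS (1.73). Hopx, a homeodomain protein, stood at 238 CPM in EM and 99.5 CPM in PBS (1.26). Xcl1, the chemokine that draws Xcr1-bearing dendritic cells (chr1:164931644-164935527, minus strand), was among the genes with the highest ratios of all. It stood at 526 CPM in EM and 48.7 CPM in PBS, a log2 ratio of 3.43 (3.26 to 3.61). In Cd8 members it stood at 829 CPM in EM and 47.7 CPM in PBS (4.12), and in Cd4 members without Foxp3 at 38.1 CPM in EM and 30.4 CPM in PBS (0.33).

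Inhibitory receptors and exhaustion genes leaned lower in EM: 14 of 18 were below 0, 4 past the fold against 9.17% of all genes, with a median of -0.53. The median was -0.74 in Cd8 members, -0.60 in Cd4 members without Foxp3 and of the other sign in Foxp3 members, at 0.16, where 7 of 11 measured genes were above 0. Pdcd1, the receptor PD-1, stood at 111 CPM in EM and 185 CPM in PBS, a log2 ratio of -0.74 (-0.95 to -0.53). In Foxp3 members it stood at 73.5 CPM in EM and 22.9 CPM in PBS, a ratio of the other sign (1.68, 0.42 to 3.15). Tox2, a factor of the exhaustion programme, stood at 4.52 CPM in EM and 32.6 CPM in PBS (-2.85), Nr4a2, a nuclear receptor induced by antigen signals, at 199 CPM in EM and 471 CPM in PBS (-1.24), and Havcr2, the receptor TIM-3, had -1.14. T cells outside the cycling rule had a median of -0.87.

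Costimulatory genes had a median of 0.45 over 11 genes, with 2 past the fold higher (4.79% of all genes), Cd28 (348 CPM in EM, 167 CPM in PBS; 1.06) and Cd40lg (21.6 CPM in EM, 6.54 CPM in PBS; 1.72). Within Cd8 members the median was -0.31 and none of 10 was past the fold higher. Cd40lg, an X-linked gene, encodes the ligand through which helper cells license B and dendritic cells. In Cd4 members without Foxp3 it stood at 121 CPM in EM and 77.0 CPM in PBS (0.66).

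Genes of resting and recirculating T cells were higher in EM in 12 of 16 cases, 6 past the fold against 4.79% of all genes, with a median of 0.58. T cells outside the cycling rule had a median of 0.51. The subsets differed: the median was 0.51 in Cd8 members and 0.23 in Foxp3 members, but 0.02 in Cd4 members without Foxp3 and -0.32 in all Cd4 members, where 9 of 15 measured genes were below 0. Klf2, which drives exit from tissues, stood at 183 CPM in EM and 32.8 CPM in PBS, a log2 ratio of 2.48 (2.24 to 2.72), with ratios of 2.73 in Cd8 members, 2.12 in Foxp3 members and 1.82 in Cd4 members without Foxp3. Tcf7, the stem-like T cell factor TCF-1, stood at 63.4 CPM in EM and 18.4 CPM in PBS in Cd8 members (1.78, 1.34 to 2.22) and at 55.5 CPM in EM and 68.9 CPM in PBS in Cd4 members without Foxp3 (-0.31).

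Of 25 homing and adhesion genes, 9 were higher past the fold (4.79% of all genes) and 1 lower (9.17% of all genes), with a median of 0.48. Cd69, which holds T cells in tissue by opposing S1pr1, stood at 525 CPM in EM and 78.8 CPM in PBS, a log2 ratio of 2.74 (2.59 to 2.89). Ly6c2, a surface protein of effector and memory Cd8 T cells that interferon also induces, stood at 2960 CPM in EM and 582 CPM in PBS in Cd8 members (2.35). Itga4, the integrin subunit used to enter the inflamed brain, stood at 234 CPM in EM and 475 CPM in PBS (-1.02).

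In counts summed over all members, regulatory T cell genes were mostly higher in EM, where Foxp3 cells also made up a larger share. Of 21 measured of 23 listed, 11 were higher past the fold, against 4.79% of all genes, and 1 was lower, against 9.17%, with a median of 1.05. Within Cd8 members the median was -0.38 over 17 genes, 12 of them below 0, and within Foxp3 members 0.22 over 19. In T cells outside the cycling rule it was 1.04 over 22 genes, with 11 past the fold higher, against 5.03% of all genes there. Foxp3 itself, an X-linked gene, stood at 122 CPM in EM and 25.9 CPM in PBS over all members (2.24). Within Foxp3 members it stood at 776 CPM in EM and 608 CPM in PBS (0.35, 0.07 to 0.64). Those members were chosen by 1 UMI of that gene, and the part of depth in that ratio was not tested. Il2ra, the high-affinity interleukin 2 receptor chain, stood at 439 CPM in EM and 154 CPM in PBS (1.51). It stood at 1751 CPM in EM and 748 CPM in PBS in Foxp3 members (1.23, 1.00 to 1.46), at 489 CPM in EM and 124 CPM in PBS in Cd4 members without Foxp3 (1.98), and at 113 CPM in EM and 131 CPM in PBS in Cd8 members (-0.22, -0.49 to 0.04). Areg, the tissue repair factor amphiregulin, stood at 35.1 CPM in EM and 229 CPM in PBS in Foxp3 members (-2.70). Socs2, a brake on cytokine signals, had 1.51 in Foxp3 members, 1.45 in Cd4 members without Foxp3 and 0.19 in Cd8 members.

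**Figure D5:**
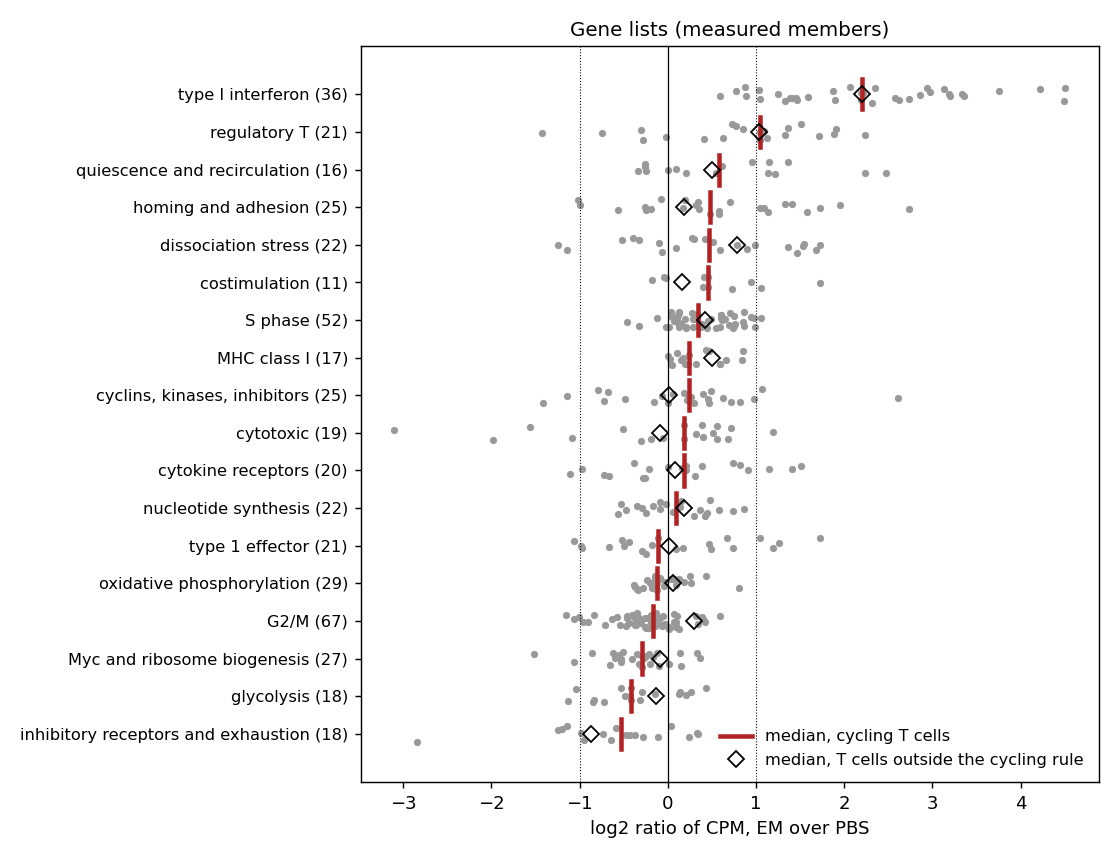
Log2 ratio of CPM, EM over PBS, of each measured gene (grey points) of 18 gene lists in cycling T cells, with the number of genes in brackets; red bars mark medians in cycling T cells, open diamonds those in T cells outside the cycling rule, and dotted lines the 2-fold bounds. The type I interferon list stands highest (median 2.20 in both) and the inhibitory receptor and exhaustion list lowest (-0.53 in cycling T cells).

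Of the metabolic lists, glycolysis and Myc targets had medians below 0, with few genes past the fold. Of 18 glycolysis genes, 13 were below 0, with a median of -0.42, and 2 were past the fold, near the 9.17% of all genes; Slc2a1, the glucose transporter GLUT1, stood at 34.7 CPM in EM and 75.7 CPM in PBS (-1.13). The median of 27 Myc target and ribosome biogenesis genes was -0.30, with 2 past the fold lower, a share below the 9.17% of all genes, Mybbp1a among them (-1.51). None of 29 oxidative phosphorylation genes (median -0.13) and none of 22 nucleotide synthesis genes (0.09) was past the fold. All 17 MHC class I genes were above 0 by value, 12 of them with an interval above 0, and none was past the fold. Their median was 0.24. In Cd8 members 3 of the 17 were below 0. Of 20 cytokine receptor genes, 3 were higher past the fold (4.79% of all genes) and 1 lower (9.17% of all genes), with a median of 0.18. The dissociation stress list, a possible sign of sample handling, had a median of 0.47. Of its 22 genes, 6 were past the fold higher against 4.79% of all genes, Jun (1.68) and Zfp36 (1.72) among them. Ier2 (-1.24) and Btg2 (-1.14) were the 2 lower, near the 9.17% of all genes. In T cells outside the cycling rule the median was 0.78, with 9 of 22 past the fold higher, against 5.03% of all genes there. The cause of these ratios and the part of this list in the results were not tested.

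Beyond the lists, the named genes with the highest ratios after Xist were Wdr19, a ciliary transport protein, at 79.4 CPM in EM and 3.76 CPM in PBS (4.40, 3.81 to 5.05), and the interferon-inducible DNA-sensing family members Ifi214 (4.16), Ifi208 (3.49) and Ifi213 (3.48). Those 3 lie side by side on chromosome 1 and are near copies, so the split of their reads is uncertain. Tbc1d4, which regulates glucose transporter traffic, stood at 74.4 CPM in EM and 7.93 CPM in PBS (3.23). Its level was highest in Cd4 members without Foxp3, at 322 CPM in EM and 38.5 CPM in PBS.

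Among the lowest ratios were the granzymes Gzme (1.01 CPM in EM, 58.2 CPM in PBS; -5.85) and Gzmd (5.03 CPM in EM, 99.3 CPM in PBS; -4.31), near copies in 1 cluster whose read split is uncertain; neither had a UMI in Cd4 members without Foxp3 or in Foxp3 members of either library. Serpinb9b had 0.503 CPM in EM and 62.9 CPM in PBS (-6.97), and Osr2, a zinc finger gene, 1.01 CPM in EM and 51.5 CPM in PBS (-5.68). Chil3, a lectin of macrophages and neutrophils, had 2.01 CPM in EM and 131 CPM in PBS (-6.03), and Cxcl9, a chemokine of myeloid cells, 3.02 CPM in EM and 57.3 CPM in PBS (-4.25). Both stood lower in EM, as did the summed myeloid and neutrophil markers given above; without cells of at least 2 myeloid or B cell marker UMIs, the ratio of Cxcl9 was -1.83. In Cd8 members Chil3 had no UMI in EM and 80.6 CPM in PBS, at least 32.7-fold lower in EM with 3 UMIs as the floor of the EM library.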

How the data were processed

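Immune cells of mouse gliomas were profiled in 2 BD Rhapsody libraries, EM and PBS. The authors deposited 1 matrix of UMI counts per library, read here as raw counts; per the submitters' processing notes they used CASAVA 1.8, STARsolo and mm10, and the handling of reads with several matches is not given in the sources used here. The counts summed to 19385631 UMIs in EM and 45043934 in PBS.

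From the deposited counts, cells were filtered and chosen by the rule in the report, and no doublet caller was run. UMIs were summed per library and cell set, scaled to CPM and compared as log2 ratios of EM over PBS with no pseudocount. Intervals of ratios are exact conditional binomial intervals that treat counts as Poisson, and those of shares are Clopper-Pearson (scipy 1.17.1, numpy 2.4.6, pandas 2.3.3). The ratios and their intervals recovered known ratios on simulated Poisson counts with no spread between cells. That simulation shares the Poisson assumption, so it does not test it on these data. A share at 0 is given with the limit that 3 counts allow. Sequences were taken from RefSeq (GRCm38.p6), using the first listed promoter of a gene, and 31107 of the 31253 gene IDs in the files were found in GENCODE M21.

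The members and gene lists were chosen with earlier results of these data known. Named genes were the 10 highest and 10 lowest ratios among genes with at least 100 UMIs over both libraries, at least 50 CPM in the higher library and an interval that excludes equality, leaving out mitochondrial, ribosomal protein, haemoglobin, T cell receptor, immunoglobulin and unnamed genes and markers of other cell types. To these were added the 2 highest and 2 lowest of each list and a set of fixed genes (those of the rule, Cd4, Cd8a, Cd8b1, Foxp3, Pdcd1, Gzmb, Ifng, Tcf7, Isg15, Xist and Ddx3y). Fasl, Havcr2, Irf7, Irf9, Nek2, Rsad2, Stat2 and other named list members outside this rule were chosen after their values were seen. Alternatives changed the thresholds, depth, scaling and cells; thinning PBS to the EM depth was added after seeing the data. Some results are not reported here.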

Additional observations from a re-analysis of the deposited data

How the results depend on the processing

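No paired analysis was possible because each group has 1 library; for the same reason no library could be left out. Of the alternative values of the main results, 74 stayed within the counting interval of a ratio of shares, within the typical counting error of its genes for a list median, or within 1.5 times of a count of genes, and 13 did not. The ratio of the cycling share of T cells (0.489) was 0.806 at 2000 UMIs per cell, 0.599 with a minimum of 1500 UMIs, 0.591 with PBS thinned to the EM depth, 0.552 without cells of 2 or more myeloid or B cell marker UMIs and 0.418 without the 5% of cells with the most UMIs. Among cycling T cells the Foxp3 ratio was 10.2 at 1000 UMIs per cell (12 of 120 cells in EM and 2 of 203 in PBS, 2.26 to 93.4) and the Cd4 ratio 3.85 at 2000. The number of genes measured changed with the setting, so the counts of genes past the fold do not compare directly. The count higher in EM (519 of 10838) was 1364 of 13263 with at least 1 UMI in each library as the minimum. It was 253 of 7986 with at least 100 UMIs over both. The count lower (994 of 10838) was 350 of 7986 with at least 100 UMIs. It was 481 of 6960 with members thinned to 1000 UMIs and 596 of 9762 with PBS thinned. The G2/M median (-0.17) was -0.43 with PBS thinned. Some of the 74 values could not move. With at least 1 UMI in each library or at least 100 UMIs, the S phase and G2/M medians rested on the same 52 and 67 genes. The type I interferon median rested on the same 36 genes with at least 1 UMI in each library. Values of 3 results changed direction: the ratio of the cycling share of Cd4 T cells was 1.36 at 2000 UMIs, and in Cd8 members alone the regulatory T list median was -0.38 and Il2ra -0.22. The cause was not tested; fewer cells, genes or subsets entered by construction. The Cd8 ratio among cycling T cells (0.805 at 1000 UMIs, with an interval that holds 1) and the S phase and type I interferon medians kept their direction in all alternatives run. Foxp3 and Cd4 calls rest on 1 UMI, so the depth of the EM library limits them.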

Other observations

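Cycling Cd8 T cells were also set beside Cd8 T cells of the same library that did not meet the cycling rule, as a description, since the rule chose on this contrast. Cell cycle genes were higher by construction. The log2 ratio of cycling over other Cd8 T cells had a median of 3.84 in EM and 4.39 in PBS for the G2/M list and of 2.05 in EM and 2.13 in PBS for the S phase list, where 6.87% of all genes in EM and 6.43% in PBS were past the fold higher. Genes of resting T cells and the chemokine Ccl5 stood lower in the cycling cells of both libraries. The median of the quiescence and recirculation list was -0.76 in EM and -0.97 in PBS. Ccl5 stood at 1965 CPM in cycling and 5195 CPM in other Cd8 T cells of EM, and at 3312 CPM in cycling and 11872 CPM in other Cd8 T cells of PBS. Hopx stood at 206 CPM in cycling and 368 CPM in other Cd8 T cells of EM, and at 83.0 CPM in cycling and 228 CPM in other Cd8 T cells of PBS. Gzmb differed less, with log2 ratios of -0.48 in EM and -0.45 in PBS. Xcl1 went the other way, at 829 CPM in cycling and 504 CPM in other Cd8 T cells of EM, and at 47.7 CPM in cycling and 25.4 CPM in other Cd8 T cells of PBS. Kdm5b, a histone demethylase, was among the 10 lowest genes in all 3 subsets of the EM library and in the Cd8 and Cd4 cells of the PBS library. The type I interferon list had medians of -0.52 in EM and -0.72 in PBS.

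Foxp3 T cells were chosen by at least 1 Foxp3 UMI, a rule that depends on depth. Within them, Foxp3 stood at 776 CPM in cycling and 1094 CPM in other cells of EM. In PBS it stood at 608 CPM in cycling and 1015 CPM in other Foxp3 T cells. Cycling Foxp3 cells held a median of 4498 UMIs in EM and 7952 in PBS. T cells of all subsets outside the cycling rule held 2083 in EM and 4169 in PBS. The part of depth in these Foxp3 levels was not tested.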
